A study of Homo sapiens with 6 samples.

Results

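The receptors MET and MST1R with the ligand HGF, and the TAM receptors TYRO3, AXL and MERTK with the ligands GAS6 and PROS1, were examined in a lung cancer line and in a clone of it that resists an EGFR inhibitor. These 8 genes were chosen by name, and every probe set that the platform's annotation assigns to 1 of them alone was taken, which gave 20 of 22215 probe sets. All 8 genes, of 11963 genes measured in all, had at least 1 probe set, and no filter on low values was applied. NCI-H1975 is an established human non-small cell lung cancer line with mutant EGFR. The WZR6 group held 3 arrays, all of the single clone WZR6, which was isolated from NCI-H1975 after selection in rising amounts of WZ4002, a kinase inhibitor directed at mutant EGFR. The parental group held 3 arrays of NCI-H1975 that is sensitive to WZ4002. Cells of both groups grew exponentially in serum-containing RPMI, and the labels do not say whether WZ4002 was still present when they were harvested. The labels call the samples triplicates without saying that they were separate cultures, so p-values measure the spread between these samples, which may be technical, and nothing separates an effect of resistance from the particular history of 1 clone.

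MET and MST1R, also called RON, are the related receptor tyrosine kinases for hepatocyte growth factor (HGF) and for macrophage-stimulating protein. HGF is secreted as an inactive precursor and binds MET productively only after a protease has cut it. GAS6 is a ligand of all the TAM receptors, while protein S, the product of PROS1, acts chiefly through TYRO3 and MERTK. Both ligands are carboxylated on glutamates with the help of vitamin K. MET amplification and AXL activity are well-known routes by which EGFR-mutant lung cancers bypass EGFR inhibitors, since both receptors can feed the same downstream RAS and PI3K pathways.

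The 250 bases before the transcription start are shown for the 4 genes with the largest decreases in WZR6, MET, MST1R, MERTK and PROS1, and for AXL, the only one of the 8 genes called higher. The sequences are RefSeq's on GRCh38.p14, 5′ to 3′ on the strand of the gene, and were not read from these cells. AXL had 2 promoter entries, and only the one at the outer start of the gene is shown and searched.
MET chr7:116671946-116672195 (+): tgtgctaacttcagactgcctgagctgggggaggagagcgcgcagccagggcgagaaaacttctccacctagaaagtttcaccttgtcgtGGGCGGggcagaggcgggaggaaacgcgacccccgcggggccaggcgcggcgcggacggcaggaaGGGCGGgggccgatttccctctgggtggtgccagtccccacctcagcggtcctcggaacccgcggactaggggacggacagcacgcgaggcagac
MST1R chr3:49903874-49904123 (-): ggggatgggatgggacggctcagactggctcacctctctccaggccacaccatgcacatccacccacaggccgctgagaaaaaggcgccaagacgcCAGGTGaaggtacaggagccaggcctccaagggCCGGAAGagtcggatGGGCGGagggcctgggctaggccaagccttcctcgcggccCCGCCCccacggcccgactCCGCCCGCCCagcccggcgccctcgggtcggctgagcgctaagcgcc
MERTK chr2:111898357-111898606 (+): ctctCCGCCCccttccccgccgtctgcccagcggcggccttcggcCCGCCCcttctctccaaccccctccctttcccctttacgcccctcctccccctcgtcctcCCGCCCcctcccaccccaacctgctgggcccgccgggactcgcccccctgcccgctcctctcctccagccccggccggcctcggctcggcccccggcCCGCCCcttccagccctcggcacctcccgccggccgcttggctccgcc
PROS1 chr3:93973897-93974146 (-): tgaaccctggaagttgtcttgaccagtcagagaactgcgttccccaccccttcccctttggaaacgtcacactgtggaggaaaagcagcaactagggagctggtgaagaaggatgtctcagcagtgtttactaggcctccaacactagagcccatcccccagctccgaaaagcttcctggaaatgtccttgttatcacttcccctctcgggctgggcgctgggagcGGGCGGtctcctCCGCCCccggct
AXL chr19:41218973-41219222 (+): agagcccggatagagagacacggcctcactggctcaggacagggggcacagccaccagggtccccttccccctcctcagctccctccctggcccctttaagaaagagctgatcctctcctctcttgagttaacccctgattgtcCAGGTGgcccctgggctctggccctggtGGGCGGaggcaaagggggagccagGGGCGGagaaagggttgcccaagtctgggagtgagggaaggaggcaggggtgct
Capitals mark matches on either strand to the GC box GGGCGG, the AP-1 site TGANTCA, the ETS site CCGGAAG and the E-box CACCTG of the kind bound by ZEB and SNAI repressors. GC boxes were found in all 5 of these promoters, 2 in MET, 4 in MST1R, where the last pair overlaps, 4 in MERTK, 2 in PROS1 and 2 in AXL. The E-box was found once each in MST1R and AXL, and the ETS site once in MST1R. The AP-1 letters were in none of the 5. Among the same 250 bases of 35116 promoter entries, 42.6% held the GC box, 17.5% the E-box, 8.5% the ETS site and 6.6% the AP-1 site. The genes that were lower and the gene that was higher in WZR6 thus both carry GC boxes, and a match is only a description of letters.

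Intensities are the deposited values on a linear scale, differences are log2 of WZR6 minus parental with their standard error (SE), and a feature was called at a Benjamini-Hochberg adjusted p under 0.05 in limma, a linear model fitted over all 22215 probe sets. Of the 20 probe sets, 10 were lower and 1 was higher in WZR6, and 9 were not called. Over all probe sets 41.1% were called, 19.5% lower and 21.6% higher. The groups did not overlap for 12 of the 20 probe sets, against 51.1% of all probe sets. With 1 probe set a gene, the brightest, 5 of the 8 genes were lower, 1 was higher and 2 were not called, against 48.0% of 11963 genes called, 23.5% lower and 24.5% higher. Groups did not overlap for 6 of the 8 genes, against 56.3% of all genes. The share of all genes that differ is thus large, and the sizes below carry more than the count. The median of the 8 differences was -0.63, and that of all genes was 0.02.

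Across probe sets, the correlation of 2 arrays of the same group was 0.9978 to 0.9983 and that of a WZR6 array with a parental one 0.9815 to 0.9826, and no array duplicated another (0 pairs). Of 8 measured markers of a lung epithelial line 6 were lower in WZR6, 0 higher and 2 not called. Their summed intensity was 26322 to 27023 in WZR6 arrays and 45671 to 46166 in parental arrays. EPCAM and CDH1 differed by -6.26 and -5.69 on the log2 scale, while KRT18, at 14.02 in WZR6 and 14.14 in parental cells, was not called (adjusted p = 0.0732 in limma). The keratins KRT19, KRT7 and KRT8 were lower in WZR6, with differences of -1.71, -0.77 and -0.22 and WZR6 means of 11.13, 11.63 and 12.08. The part of the lost epithelial genes in the results below was not tested.

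MET transcript fell in WZR6 on all 4 of its probe sets. The brightest read 4325, 4289 and 4427 in the WZR6 arrays, against 8275, 8755 and 8654 in the parental arrays. The groups lay far apart compared with their spread, with log2 means of 12.09 ± 0.02 in WZR6 and 13.06 ± 0.04 in parental cells (SD, n = 3 each), and the difference was -0.98 ± 0.05 (SE, adjusted p = 1.11e-05 in limma). MET nevertheless remained a strong signal in the clone, since every WZR6 value of this probe set lay above the upper quartile of all log2 values, 9.61. The other 3 probe sets were dimmer and noisier but had the same direction and no overlap. Probe set 213816_s_at had intensities of 146, 143 and 93.7 in WZR6 and 231, 368 and 244 in parental cells, a difference of -1.14 ± 0.23. The remaining pair, 211599_x_at and 213807_x_at, are of a type that can also detect other transcripts, and differed by -0.53 ± 0.14 and -0.56 ± 0.11. The call of 211599_x_at rested on 2 arrays, since its adjusted p of 0.0194 in limma became 0.0669 without parental replicate 1 and 0.0609 without parental replicate 2.

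MST1R, the receptor for macrophage-stimulating protein, also fell in WZR6. Its only probe set read 129, 163 and 132 in WZR6, against 410, 435 and 467 in parental cells. All 3 WZR6 arrays lay well below all 3 parental arrays, and the difference was -1.64 ± 0.10 (SE, adjusted p = 3.02e-05 in limma). The transcript of its ligand, MST1, was not called (difference -0.17 ± 0.07, adjusted p = 0.0788 in limma).

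HGF, the ligand of MET, was not called on any of 5 probe sets. The brightest, 209961_s_at, read 90.3, 97.4 and 99.2 in WZR6, against 103, 95.8 and 85.7 in parental cells. The groups overlapped, and the difference was 0.02 with a 95% interval of -0.17 to 0.20 (adjusted p = 0.884 in limma). The other 4 HGF probe sets had means under 5.27, the lower quartile of the log2 values of the whole table, in both groups, so background may hide differences there. Among them 209960_at was the closest to a call, with a difference of -0.18 ± 0.07 (adjusted p = 0.0732). It passed under cyclic loess (adjusted p = 0.0301), under quantile normalization (0.0381) and without parental replicate 3 (0.021), at differences of -0.21, -0.20 and -0.24. HGF made by fibroblasts is the usual source for MET on epithelial cells. Of 8 fibroblast markers 1 was higher and 2 lower in WZR6 and 5 were not called, with a summed intensity of 1278 to 1293 in WZR6 and 2212 to 2397 in parental cells. COL1A1 differed by -3.00 and COL1A2 by -0.56, and PDGFRB by 0.66. LUM, FAP and COL3A1 were below the lower quartile in both groups, and DCN and THY1 were not called. The part of these markers in the HGF values was not tested.

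**Figure D1:**
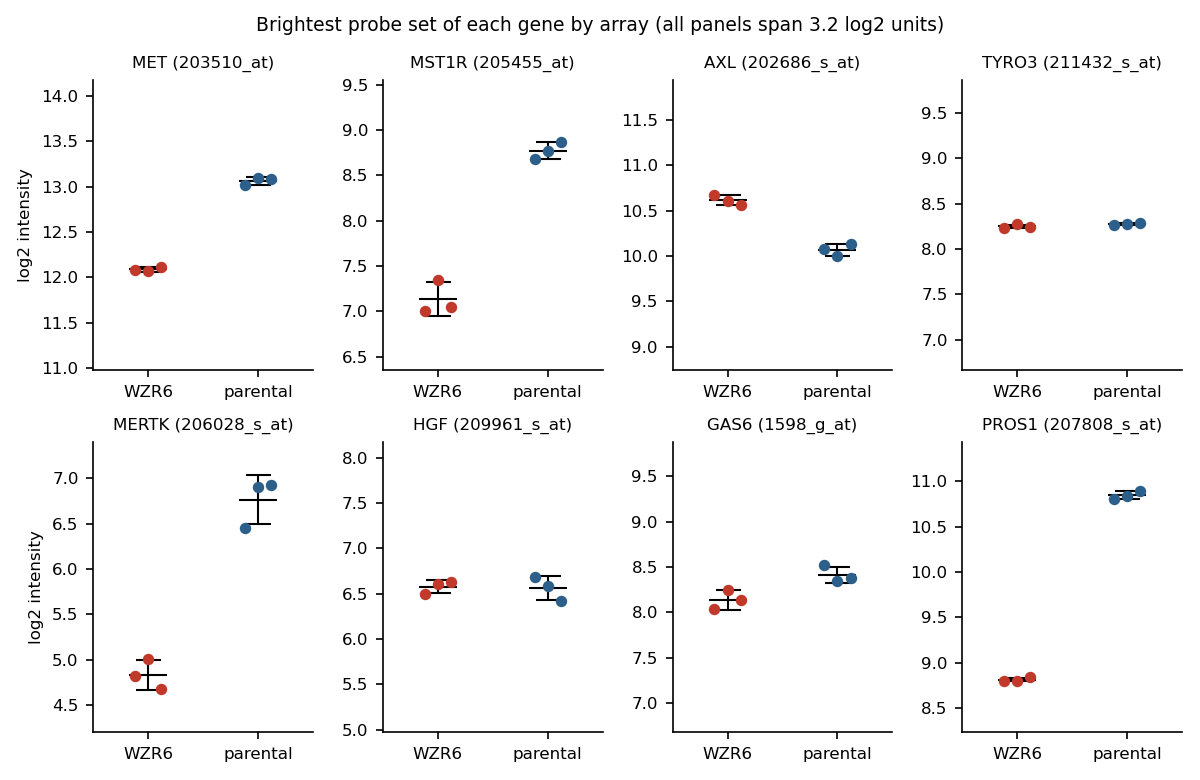
Log2 intensity of the brightest probe set of each gene in the 3 WZR6 arrays (red, left) and the 3 parental arrays (blue, right); points are arrays and black marks are the mean and SD. MET, MST1R, MERTK and PROS1 lie far lower in WZR6, AXL lies higher, GAS6 slightly lower, and TYRO3 and HGF overlap.

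AXL was the only TAM receptor called higher in WZR6. Its bright probe set, 202686_s_at, read 1633, 1561 and 1517 in WZR6, against 1080, 1022 and 1120 in parental cells. The lowest WZR6 array exceeded the highest parental array, and the difference was 0.55 ± 0.06 (SE, adjusted p = 2.86e-04 in limma). The second AXL probe set, 202685_s_at, was dim, at 116, 109 and 125 in WZR6 and 91.6, 106 and 103 in parental cells. Its groups did not overlap either, but the difference of 0.22 ± 0.08 missed the threshold (adjusted p = 0.0657). It was called higher under median centring (0.26, adjusted p = 0.0341) and quantile normalization (0.26, adjusted p = 0.0357).

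MERTK, the TAM receptor best known from phagocytes that clear dying cells, fell in WZR6. Its brightest probe set, 206028_s_at, read 28.2, 32.1 and 25.6 in WZR6, against 87.6, 120 and 122 in parental cells. The groups were widely separated, with a difference of -1.93 ± 0.14 (SE, adjusted p = 6.81e-05 in limma), and the WZR6 mean of 4.83 lay below the lower quartile, so background limits the size of this difference. The probe set 211913_s_at went the same way, at 26.6, 28.0 and 32.1 in WZR6 and 46.2, 43.8 and 37.3 in parental cells (-0.55 ± 0.10, adjusted p = 0.00437). The dimmest, 211912_at, was at 15.2, 15.5 and 18.1 in WZR6 and 16.7, 14.6 and 14.0 in parental cells, below the lower quartile throughout, and was not called (0.11 ± 0.09). MERTK thus rested on _s_at probe sets, a type that can match several transcripts of a gene family, and when values under the table's median, 7.38 on the log2 scale, were raised to it, no difference was left to test. Leukocyte markers gave the following picture beside it. Of 6 measured, 2 were lower in WZR6 (CD14 and CSF1R), 0 higher and 4 not called, with a summed intensity of 380 to 420 in WZR6 and 538 to 621 in parental cells. The defining marker PTPRC was below the lower quartile in both groups, at 4.17 in WZR6 and 4.20 in parental cells, and the part of the others in the MERTK difference was not tested. Of 5 endothelial markers 1 (CDH5) was higher and 4 were not called. In bulk RNA, fewer cells that carry a transcript and less transcript per cell cannot be told apart.

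TYRO3, the remaining TAM receptor, was not called. Its bright probe set, 211432_s_at, had nearly the same intensity on all arrays, 300.5, 309 and 304 in WZR6 and 308, 311 and 313 in parental cells. The difference was -0.03 with a 95% interval of -0.13 to 0.07 (adjusted p = 0.653 in limma), a range that leaves room only for a small change. The second probe set, 211431_s_at, was below the lower quartile in both groups and differed by 0.16 ± 0.10. The 3 TAM receptors therefore gave 1 higher, 1 lower and 1 not called.

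PROS1, which encodes the TAM ligand and anticoagulant protein S, fell in WZR6. Its single probe set read 446, 446 and 457 in WZR6, against 1795, 1833 and 1908 in parental cells. The 3 WZR6 arrays agreed closely, the groups were 4.10-fold apart, and the difference was -2.04 ± 0.05 (SE, adjusted p = 6.1e-07 in limma). GAS6, the other TAM ligand, had smaller decreases on 2 probe sets. Its brightest probe set, 1598_g_at, read 262, 304 and 280 in WZR6, against 366, 325 and 333 in parental cells, and the second, 202177_at, read 64.5, 66.8 and 68.3 in WZR6, against 93.6, 83.9 and 78.5 in parental cells. Neither overlapped between groups, and the differences were -0.28 ± 0.07 (adjusted p = 0.0224) and -0.36 ± 0.07 (adjusted p = 0.00681). The call of 1598_g_at was lost without parental replicate 1 (adjusted p = 0.067), without WZR6 replicate 1 (0.0722) and without WZR6 replicate 3 (0.0609), while 202177_at stayed called without any 1 array. In WZR6 the higher AXL transcript thus stood beside lower transcripts of GAS6, its own ligand, and of PROS1.

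**Figure D2:**
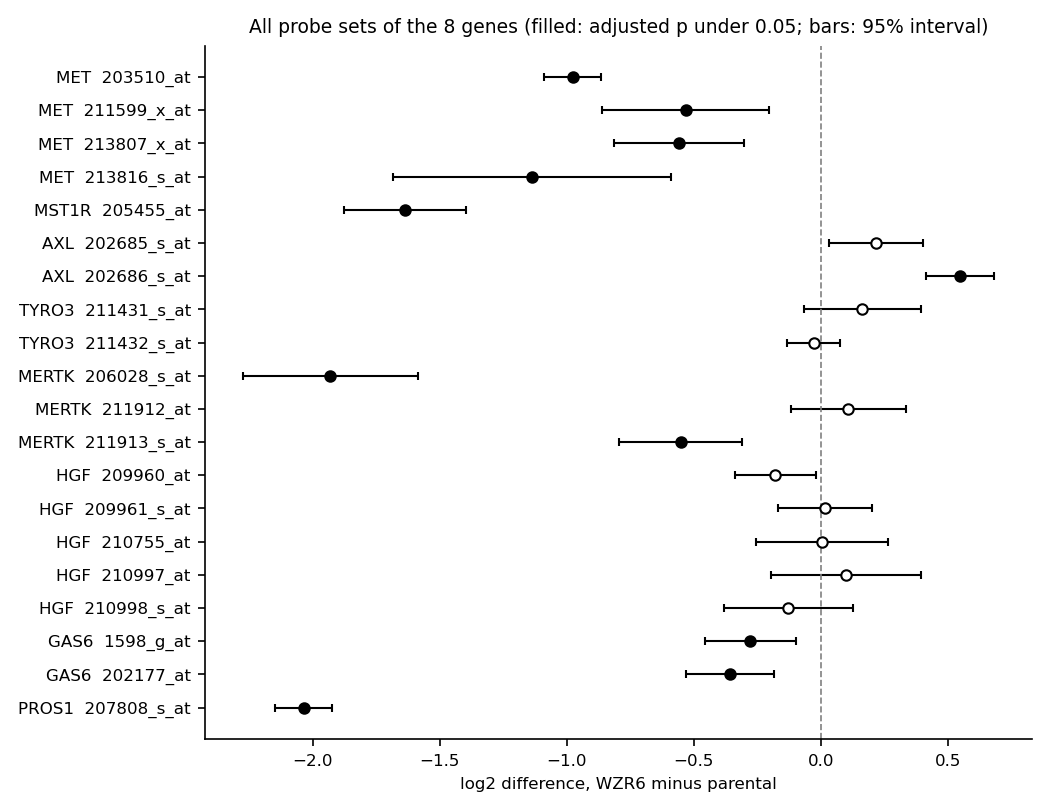
Log2 difference of WZR6 minus parental for each of the 20 probe sets, with 95% intervals; filled points were called. All 4 MET probe sets and both GAS6 probe sets lie left of 0, the 5 HGF probe sets lie near 0, and the AXL probe sets lie right of 0.

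The list of HGF processing and MET co-receptors held 20 genes, among them protease inhibitors and MST1, the ligand gene of MST1R. Of the 19 measured, 10 were lower, 0 higher and 9 not called, against 23.5% lower and 24.5% higher over all genes. The median difference was -0.28, beside 0.02 over all genes. The 3 largest decreases were those of a protease and its inhibitors. SPINT2 and SPINT1 encode the membrane inhibitors HAI-2 and HAI-1, and ST14 encodes matriptase, a membrane protease that can cut the HGF precursor and is held in check by HAI-1. SPINT2 had log2 values of 7.82, 7.70 and 7.81 in WZR6, against 11.13, 11.00 and 11.01 in parental cells. SPINT1 had 5.75, 6.14 and 6.26 in WZR6, against 8.79, 8.86 and 8.75 in parental cells. ST14 had 6.39, 6.20 and 6.26 in WZR6, against 8.57, 8.43 and 8.73 in parental cells. The groups of all 3 genes were far apart, with differences of -3.27 ± 0.06, -2.75 ± 0.13 and -2.29 ± 0.09 (SE). Another ST14 probe set differed by -3.13, and a dim one by 0.11 and was not called.

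The co-receptors differed among themselves. NRP1, neuropilin-1, had log2 values of 9.07, 9.05 and 9.14 in WZR6, against 10.73, 10.82 and 10.91 in parental cells, a difference of -1.73 ± 0.06 (SE). Another NRP1 probe set, at 7.61 in WZR6 and 8.65 in parental cells, was called lower by a smaller difference, -1.05. A dim probe set of NRP1 differed by -0.01 and was not called. PLAU, the urokinase protease, differed by -1.73 ± 0.04, the heparan sulfate proteoglycan SDC1 by -1.65 ± 0.04, and the laminin receptor subunits ITGB4 and ITGA6, which can pair with MET, by -1.31 ± 0.13 and -1.21 ± 0.06. PLAU, SDC1, ITGB4 and ITGA6, and the plexins below, were chosen after their values were seen. CD44, whose splice forms can present HGF, was not called, at 13.04 in WZR6 and 13.00 in parental cells (difference 0.04 ± 0.05). This is its brightest probe set, and splice forms were not examined separately. Of the plexins, PLXNB1 was lower (-0.27 ± 0.08), and PLXNB2 and PLXNB3 were not called (-0.05 ± 0.05 and -0.02 ± 0.13). HGFAC, the serum activator of HGF, was below the lower quartile in both groups.

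**Figure D3:**
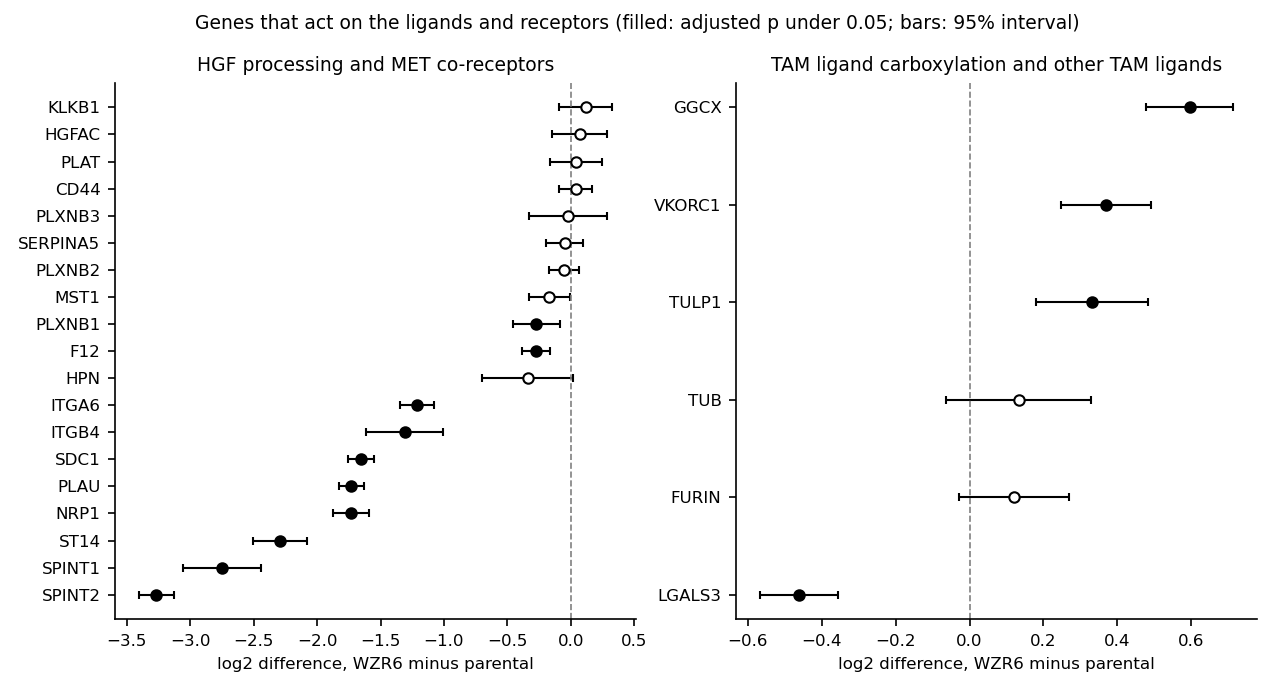
Log2 difference of WZR6 minus parental, with 95% intervals, for the measured genes of 2 lists. Left is HGF processing and MET co-receptors, which includes protease inhibitors and MST1. Right is TAM ligand carboxylation and other TAM ligands. Filled points were called. On the left 10 of 19 genes lie lower and none is called higher, and on the right GGCX, VKORC1 and TULP1 are higher and LGALS3 lower.

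The vitamin K enzymes that finish GAS6 and protein S were higher in WZR6, opposite in sign to both ligands. Of 6 measured genes in the list of ligand carboxylation and other TAM ligands, 3 were higher, 1 lower and 2 not called (median difference 0.23), against 24.5% higher and 23.5% lower over all genes. GGCX, the gamma-glutamyl carboxylase, had log2 values of 9.49, 9.44 and 9.41 in WZR6, against 8.79, 8.86 and 8.90 in parental cells, and all 4 of its probe sets were called higher (0.34 to 0.60). VKORC1, which recycles vitamin K, differed by 0.37 ± 0.05 (SE). TULP1, a tubby family protein, was higher by 0.33 ± 0.06, but its WZR6 and parental means, 5.01 and 4.68, both lay below the lower quartile, and with the floor no difference was left. LGALS3, galectin-3, which can bind MERTK, differed by -0.46 ± 0.04.

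Of 21 measured adaptors and controllers of MET and MST1R, 7 were higher, 2 lower and 12 not called (median difference 0.10), against 24.5% higher and 23.5% lower over all genes. The tyrosine kinase SRC was higher by 0.58 ± 0.05 (SE) on its brightest probe set, while its 2 dim probe sets were not called. RANBP9, a scaffold that binds MET, was higher by 0.57 ± 0.11 and on all 3 probe sets, and the receptor phosphatase PTPRF by 0.51 ± 0.05 and on all 4. GRB2, the adaptor that links these receptors to RAS, was lower (-0.46 ± 0.06). The docking protein GAB1, central to MET signaling, was not called (-0.05 ± 0.09). Its means, 5.97 in WZR6 and 6.02 in parental cells, lay below the median of all log2 values, where background may hide a difference. With each array centred on its median, which moved the median of all genes to 0.06, 11 of the 21 were called higher.

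Shedding proteases, adaptors and effectors of TAM receptors went both ways, with 7 of 26 measured genes higher, 6 lower and 13 not called (median difference -0.07). These shares are close to the 24.5% higher and 23.5% lower over all genes, so the count says nothing particular about the list. VAV3, a guanine nucleotide exchange factor, was the largest change, with log2 values of 7.53, 7.59 and 7.78 in WZR6, against 9.34, 9.24 and 9.54 in parental cells (-1.74 ± 0.10, SE). RAC1, the GTPase through which TAM receptors drive engulfment, was lower on both probe sets (-0.62 ± 0.04 on the brighter). PIK3R1, the regulatory subunit of PI3K, was higher by 0.40 ± 0.05. ADAM10 and ADAM17, which can shed AXL and MERTK, were not called (0.03 ± 0.05 and -0.07 ± 0.04). GRB2, PIK3R1, PLCG1 and SHC1 stand in both this list and that of the MET adaptors.

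Among 46 other measured receptor tyrosine kinases, 6 were higher, 9 lower and 31 not called in WZR6 (median difference 0.01), against 48.0% of all genes called, 24.5% higher and 23.5% lower. Among the 5 receptors MET, MST1R, AXL, TYRO3 and MERTK, 1 was higher, 3 lower and 1 not called. Both means lay below the lower quartile for 18 of the 46, so many of these kinases give little signal in this line. The 6 called higher were PDGFRB (0.66), FGFR1 (0.61), IGF1R (0.58), ROR1 (0.56), INSR (0.53) and DDR2 (0.20). Probe sets of IGF1R were called in opposite directions, so its direction is uncertain. The 4 largest changes of the list were all decreases. ERBB3 differed by -2.96 ± 0.16 (SE), the ephrin receptors EPHA1 and EPHB4 by -1.54 ± 0.09 and -0.78 ± 0.07, and EGFR by -0.81 ± 0.07. The sizes for EGFR and EPHB4 were smaller on their other probe sets. Another bright EGFR probe set, at 9.87 in WZR6 and 10.32 in parental cells, was lower by only -0.45. The EGFR probe sets of the _x_at type differed by -0.25, which was called, and -0.18, which was not. The other EPHB4 probe set was called lower, at -0.31. Probe sets other than _x_at and _s_at did not call ERBB3, EPHA1 or EGFR, whose differences there were -0.12, 0.13 and -0.01. A further EGFR probe set of this kind differed by -0.10 and was not called. These probe sets were dim, those of ERBB3 and EPHA1 below the lower quartile in both groups. Those of EGFR were at 6.04 and 5.64 in WZR6 and at 6.05 and 5.75 in parental cells. The part of low brightness in their difference from the bright probe sets was not tested. In addition, with the floor ERBB3 and EPHA1 were not called.

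Each gene was also set beside the 20 measured genes on each side of it in RefSeq gene order. PROS1 and MST1R, both on chromosome 3, lay below all 40 of their neighbours, whose median differences were -0.12 and -0.11. MERTK, on chromosome 2, lay below 38 of 40, with a median of -0.05. AXL, on chromosome 19, lay above 39 of 40, with a median of 0.03. Most of the surrounding genes thus did not share the size of these 4 differences. MET, on chromosome 7, lay below 36 of its 40 neighbours, of which 17 were lower, 2 higher and 21 not called. Their median was -0.09, and it was -0.22 over the 10 genes on each side, where 10 of 20 were lower and 0 higher.

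HGF, also on chromosome 7, gave the reverse picture. Of its 40 neighbours 25 were lower, 1 higher and 14 not called, with a median of -0.40, while HGF itself differed by 0.02. HGF was dim, however, with means of 6.58 in WZR6 and 6.56 in parental cells, both below the median of all log2 values. Background may hide a decrease at this level, so the values do not show that HGF escaped the decrease of its neighbours. GAS6, near the end of chromosome 13, had 22 measured neighbours, 9 lower, 0 higher and 13 not called, with a median of -0.14, so its difference of -0.28 was closer to that of its surroundings than those of the other called genes. TYRO3, on chromosome 15, had a neighbour median of 0.04. Its neighbours included SPINT1, the gene for HAI-1 described above, at -2.75.

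**Figure D4:**
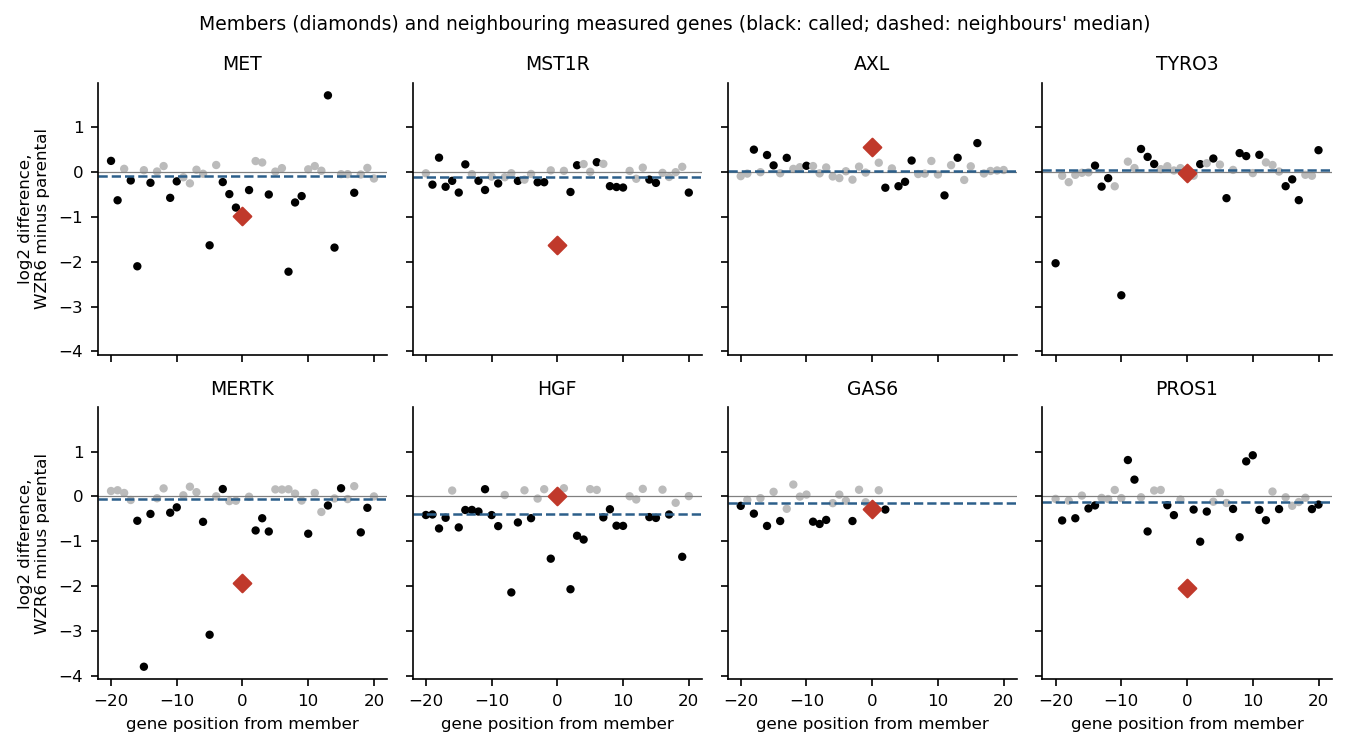
Log2 difference of WZR6 minus parental for each gene (red diamond at 0) and up to 20 measured genes on each side, by position in gene order; black points were called, grey points were not, and the dashed line is the neighbours' median. PROS1 and MST1R lie below all 40 neighbours, and the neighbours of HGF lie lower as a group.

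The genes most like each called gene were found by the distance between log2 values over the 6 arrays, each gene taken about its own mean. The 6 arrays form 2 groups, so likeness here is mostly a like difference between the groups. MET lay closest to TMEM106B and CHST15, at distances of 0.046 and 0.064 log2 units, and PROS1 to ACOX2 and TMC5, at 0.063 and 0.071. AXL lay closest to SRSF6 and GPATCH3, at 0.059 and 0.080, and GAS6 to RHBDF1 and LRRC15, at 0.076 and 0.082. The distances were larger for MST1R, with SYT1 and SMPX at 0.16 and 0.19, and for MERTK, with NME5 and ZNF257 at 0.26 and 0.28.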

How the data were processed

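Expression was measured on 6 single-colour oligonucleotide arrays, 3 of WZR6 and 3 of parental cells, grouped by sample title. The deposited table gives 1 intensity per probe set and array, made by the authors with RMA per the submitters' processing notes, with no version named there. RMA subtracts background, quantile normalizes and summarizes probes, which can compress differences of dim probe sets. Intensities ran from 9.87 to 44567, with array medians of 163 to 171, and there are no detection calls. The number of arrays limits the precision.

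The log2 of each intensity was taken without a pseudocount, and 62 control probe sets were left out. Probe sets were named from the platform's annotation, 19064 with 1 gene, 1043 with several and 2108 with no gene listed there; 19052 were matched by Entrez identifier to RefSeq. Two-sided tests used limma 3.58.1 (lmFit, eBayes) in R 4.3.3, over 22215 probe sets and over 11963 genes, each by its brightest probe set. Values of the 8 genes come from the probe set fit and those of listed genes and neighbours from the gene fit; further probe sets of listed genes come from the probe set fit. The fits were tested on simulated data. Lists were described by counts, with no set test. Named genes were the 8 genes, up to 4 called genes per list with the largest differences, and the 2 genes most like each called gene. Further genes, among them CD44, HGFAC, GAB1, ADAM10, ADAM17 and MST1, were named outside this rule. The members, lists and rules were chosen with earlier results of these data known. Alternatives were other scalings, a filter on dim probe sets, a floor, another variance model, the replicate block, other rules for a gene's probe set, fewer neighbours and leaving out each array. Figures used matplotlib 3.10.9.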

Additional observations from a re-analysis of the deposited data

How the results depend on the processing

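Of the 15 alternatives to the gene fit, all that could be run for MET, MST1R, AXL and PROS1 kept the call and direction, with differences of -1.002 to -0.80, -1.75 to -1.39, 0.38 to 0.59 and -2.07 to -1.99; AXL and PROS1 have only _s_at probe sets and gave no value without that type. TYRO3 and HGF were not called as genes under any. With the floor at the median of all values, 4 member probe sets and 3 member genes were lower, as were 1 of the MET adaptors and 4 of the other receptor kinases; values raised to the floor can show no difference. Above the median level, where fewer probe sets were tested, 6 member probe sets and 5 other receptor kinases were lower. Under median centring and under quantile normalization 2 member probe sets were higher, both of AXL, and 11 MET adaptors were higher under median centring. Without _x_at and _s_at probe sets, where fewer genes remain, 0 member genes were higher and 3 lower, MERTK changed sign to 0.11 (adjusted p = 0.426 in limma), EPHA1 changed sign to 0.13, and 6 genes of HGF processing, 0 MET adaptors, 0 TAM ligand genes and 3 other receptor kinases were lower. With a gene's probe sets averaged, 1 gene of HGF processing was higher. Leaving out 1 array gave 8 to 11 lower and 1 higher member probe set, 4 to 5 lower member genes, and 0 to 1 higher and 9 to 12 lower genes of HGF processing, the 1 higher without parental replicate 2. With 10 neighbours on each side the medians were -0.22 for MET, -0.48 for HGF, 0.15 for TYRO3 and -0.094 for PROS1. Over single genes and probe sets under all alternatives, 610 values stayed on their side of the threshold, where called in the same direction, 23 lost the call with no turn of sign, 5 gained it, and 2 called in the reported fit, those of MERTK and EPHA1 above, lost it with a change of sign. Values not called in either fit, such as those of HGF and TYRO3, could change sign and are counted among the 610. Deviations of same-numbered arrays from their group means correlated with r of -0.01, 0.12 and 0.23. Those of differently numbered arrays correlated with r of -0.24 to 0.13. These values do not settle whether the replicate numbers pair the arrays. With the replicate number as a block 9029 probe sets were called in limma, against 9131, and GAS6 probe set 1598_g_at was not called (adjusted p = 0.0611).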
